A study of Mus musculus with 20 samples.

Results

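Late regression of the mouse prostate was read here as the change between 3 and 14 days after castration. The comparison set the 5 arrays of mice killed 14 days after castration against the 5 arrays of mice killed 3 days after it, which together are 10 of the 20 arrays of the series, chosen by their labels. All groups were C57/B6 mice aged 10 to 12 weeks, and each array held RNA of whole prostate, from a series that used 5 mice per group. Neither castrated group had received hormone. The other arrays were from 5 sham-treated mice, used to tell late changes from those already made by day 3, and from 5 mice that had been castrated 14 days earlier and then carried a 15 mg testosterone pellet for 3 days, used as a reference for the levels of named genes.

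The prostate epithelium is built of tall luminal cells, which secrete proteins into the ducts, and of basal cells beneath them. Androgen acts through its receptor in luminal cells and in the surrounding stroma. After castration the gland loses secretory cells over the first days by apoptosis, and the cells that remain are small, make little secretion and can regrow the gland when androgen is given back. Macrophages are known to enter the regressing gland, and the stroma takes up a larger part of it.

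Each array had been scaled by the submitters to a trimmed mean of 500.2 to 500.3, so a signal is a scaled fluorescence intensity and compares shares of RNA, not amounts per gland. In these bulk samples fewer cells of a type and less RNA per cell cannot be told apart. Of 12422 probe sets that are not controls, 6913 (55.7%) exceeded a signal of 190.8 on at least 5 of the 20 arrays and were tested, and 5372 genes were represented among them. Array-to-array correlation over these probe sets averaged 0.974 within the 3-day group, 0.948 within the 14-day group and 0.877 between them. The log2 ratio of the 3' to the 5' Gapdh control was 2.05 and 1.82 on the 14-day arrays 4 and 5. On the other 8 castrated arrays it lay between -0.53 and -0.08. Over all 5 and 5 castrated arrays the mean ratio was 0.64 at 14 days and -0.30 at 3 days. A difference was not shown (exact two-sided permutation p = 0.127, with 0.00794 the smallest possible). On the testosterone arrays 2 and 5, which enter the means of that group and the shared fit, the log2 ratio was 4.54 and 3.93. The alternative without arrays of high Gapdh ratio leaves out all arrays with a ratio over 1, these included. Running numbers in the array titles follow the groups, with a gap before the 14-day arrays, so a difference in handling and the time after castration cannot be told apart. Of the markers of luminal cells, smooth muscle, fibroblasts, endothelium and macrophages, most were measured, whereas the basal keratins Krt5, Krt14 and Krt15 and the pan-leukocyte gene Ptprc did not pass the level filter.

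Between days 3 and 14 genes of the secretory machinery were mostly called lower, and genes of macrophages, antigen presentation, nerve and proximal luminal cells were mostly called higher. A probe set is called changed where the adjusted p of the limma fit is under 0.05. At 14 days 1395 probe sets were higher (20.2% of those tested) and 1407 were lower (20.4%), and 266 (3.85%) of the higher and 244 (3.53%) of the lower ones moved by at least 2-fold. Signals of the 5 and 5 arrays did not overlap at 2238 probe sets (32.4%). By genes, with 1 probe set each, 1149 were higher (21.4%) and 1067 lower (19.9%), and the median log2 change over all genes was 0.0043. These shares are the background for every gene list below.

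Most of these changes had not been called during the first 3 days. In the early step, from sham to day 3, 680 probe sets (9.84%) were higher and 308 (4.46%) lower. Of the 1395 late rises, 294 had also risen early, 35 had fallen early and 1066 had no early call. Of the 1407 late falls, 117 had also fallen early, 54 had risen early and 1236 had no early call. A missed early call does not show that a gene had not moved, so the difference between the late and the early step was tested in the same fit. It was called at 276 probe sets (3.99%) with the larger rise in the late step and at 402 (5.82%) with the larger fall. Probe sets with a late call, the same direction in that difference and no early call are termed late-phase, and there were 208 (3.01%) that rose and 266 (3.85%) that fell. By genes these were 161 (3%) and 209 (3.89%). Without the 3-day arrays 1, 2, 3 or 4 in turn the late-phase count of 474 became 268, 269, 248 and 249, and with the skeletal muscle score as a covariate 218. Both steps use the 3-day arrays, so their values are given side by side and no correlation is given.

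**Figure D1:**
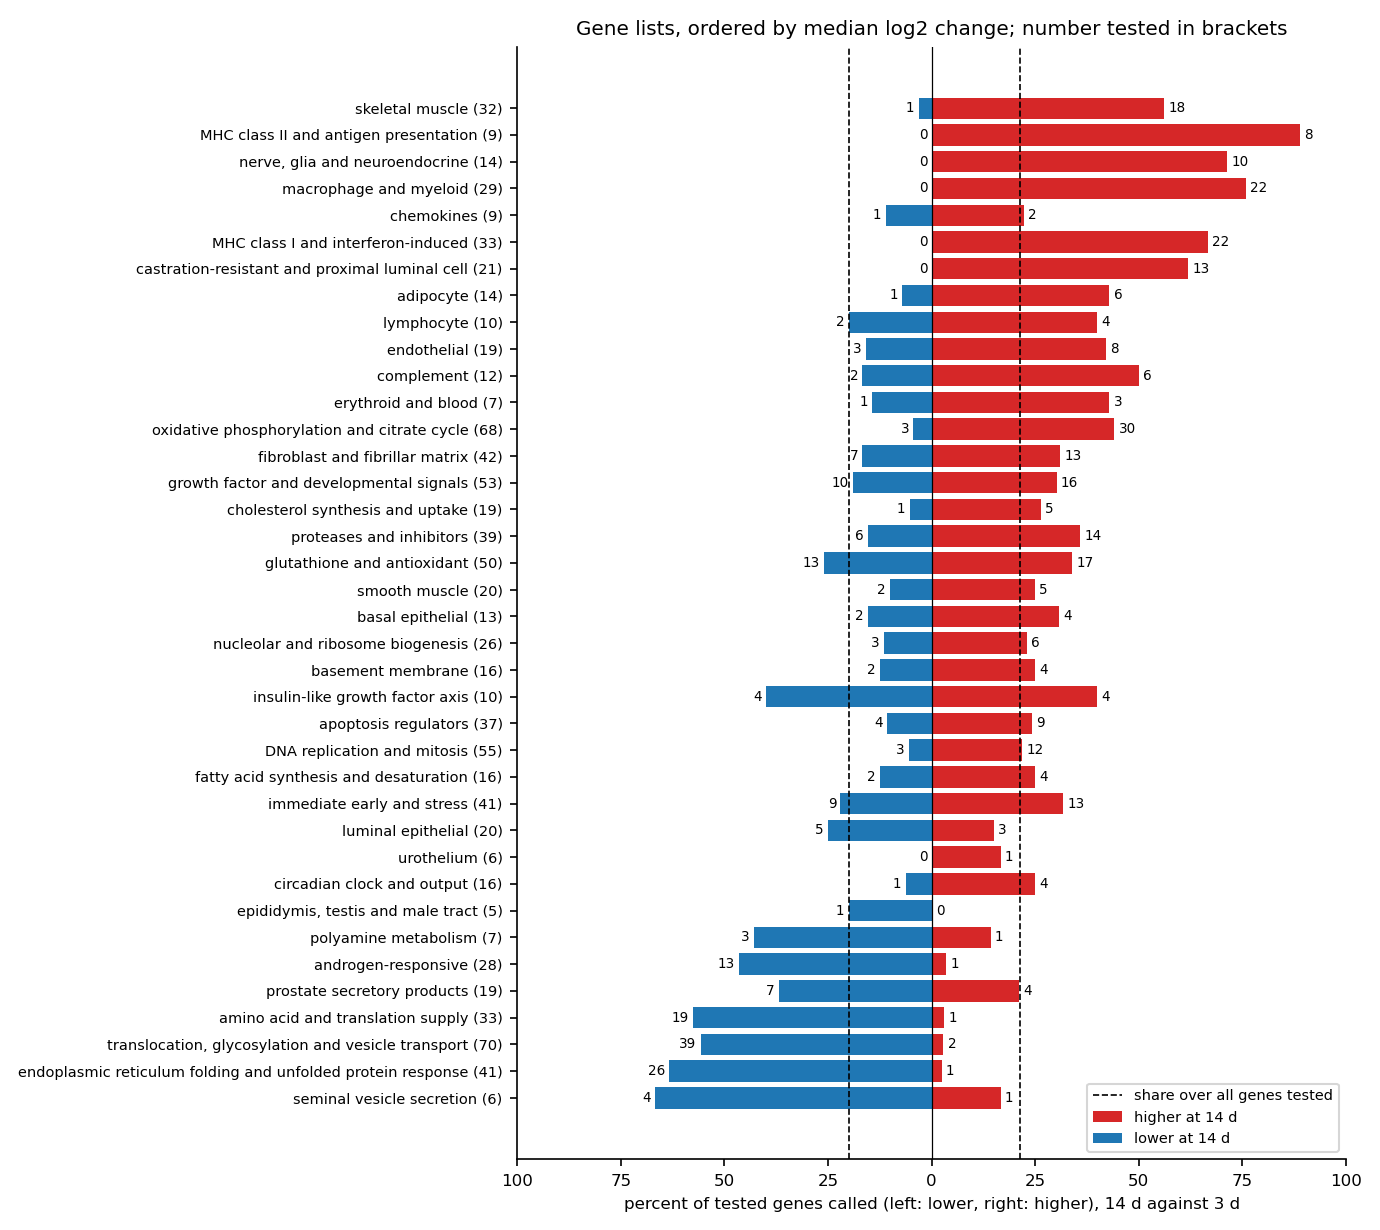
Share of tested genes called higher (red, right) or lower (blue, left) at 14 against 3 days in each of 38 gene lists, with the number called beside each bar and the number tested in brackets; dashed lines mark 21.4% and 19.9%, the shares over all genes tested. Lists of the secretory pathway lie far to the left, and those of MHC class II, macrophages, nerve and skeletal muscle far to the right.

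Secretory products included genes with a fall called in the late step alone and genes that had already fallen by day 3. Of 19 tested secretory products 7 fell, 4 rose and 8 were not called, with a median log2 change of -0.37. Fcgbp encodes a mucus-associated protein that binds the Fc part of IgG. Fcgbp read 20109.6, 16592, 19372, 20665 and 17114 on the 3-day arrays and 862, 574, 1779.8, 1309.5 and 584 on the 14-day arrays. Every 14-day array was far below every 3-day array, and sham and testosterone-treated glands stood near the 3-day level, at means of 19768 and 16818. Fcgbp fell by 4.32 ± 0.23 (SE, as in every log2 change below) on the log2(signal + 12.7) scale (19.9-fold; adjusted p = 7.74e-11), against an early change of -0.07 (95% interval -0.54 to 0.40), and the steps differed (adjusted p = 1.6e-06).

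Pbsn encodes probasin, a secreted protein of the mouse prostate long used as a marker of androgen action. It read 15349, 15113, 15041, 15595 and 14798 at day 3 and 4413, 3786, 4930.4, 5992 and 5396 at day 14. The groups did not overlap, the 3-day arrays were within a narrow band, and the testosterone group lay between them at 10013. Pbsn fell by 1.65 ± 0.12 on the log2 scale (adjusted p = 5.83e-09) after an early change of -0.15 (95% interval -0.39 to 0.093), and it was late-phase. The 250 bases before its RefSeq start (GRCm38.p6, chrX:77853501-77853750, minus strand) are shown because the gene is a marker of androgen action. Capitals mark AGAACA, the core of the hormone response element, searched on both strands and found in 18.2% of 27025 genes in such a window; this motif was chosen after the values were known, and it is also the left end of the full palindromic androgen response element, which 0.0111% of genes hold and Pbsn does not.

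Pbsn: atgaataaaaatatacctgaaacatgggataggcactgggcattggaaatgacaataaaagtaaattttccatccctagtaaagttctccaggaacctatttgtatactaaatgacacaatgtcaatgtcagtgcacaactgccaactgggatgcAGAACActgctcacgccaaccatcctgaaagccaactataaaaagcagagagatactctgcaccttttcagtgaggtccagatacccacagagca

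Msmb, a small secreted protein of the gland, followed another course. It read 854, 1014, 1295, 1937 and 360.3 at day 3 and 236, 154, 211, 41.4 and 29.1 at day 14, against a sham mean of 10523. The groups did not overlap although arrays within each varied widely. Msmb fell by 3.06 ± 0.45 in the late step (adjusted p = 3.89e-05) and had already fallen by 3.43 ± 0.45 in the early step (adjusted p = 5.4e-05), and the steps were not shown to differ (difference 0.37 ± 0.78, adjusted p = 0.8).

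Azgp1, a secreted zinc-binding glycoprotein, had 3-day signals of 1543 to 2176 and 14-day signals of 238 to 359, a late-phase fall of 2.70 ± 0.15. Sbp, the spermine-binding protein of the ventral lobe, read 14070.0, 14629, 12964, 14485 and 8478 at day 3 and 6956, 6348, 5543, 717 and 88.7 at day 14. All 14-day arrays were lower, but arrays 4 and 5 were far below the other 3, and Sbp fell by 2.83 ± 0.79, which was not called with the seminal vesicle score as a covariate. Among the products that rose, Clu, the chaperone clusterin, went from a mean of 10190.4 to 14572 with overlapping arrays (log2 rise 0.53 ± 0.17, adjusted p = 0.0175). Lcn2, an iron-siderophore carrier of the innate response, read 5809, 5358, 2895, 5893 and 244 at day 14 against 416, 683, 476, 278 and 489 at day 3, so 4 of 5 arrays were higher and 14-day array 5 was below the whole 3-day group.

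Outside the list of products, 3 other abundant transcripts fell in the late phase, and the cells they came from were not measured. Agr2, a disulfide isomerase of the endoplasmic reticulum in mucus-making cells, read 8572, 8609, 9229, 9079.6 and 7760.4 at day 3 and 1544, 1534, 1739, 958 and 820.0 at day 14. Egf, epidermal growth factor, read 6561, 6326, 6941, 7270.2 and 5938 and 1579, 1399, 1909, 753 and 439 in the same order. Mt1, a metal-binding metallothionein, read 15954, 14929, 14605, 15662 and 12771 and 3643, 4104, 2937, 2963 and 3884. For each of these genes all 14-day arrays lay under all 3-day arrays and no early change was called. Their log2 falls were 2.76 ± 0.16 for Agr2, 2.61 ± 0.28 for Egf and 2.08 ± 0.12 for Mt1 (adjusted p = 2.64e-10, 1.25e-06 and 2.48e-10). In the testosterone group Agr2 stood at a mean of 8262, near its sham mean of 9355, whereas Egf stood at 1041, below every 3-day array. Mt2, the paralogue of Mt1, had 3-day signals of 14911 to 18186 and 14-day signals of 4436 to 5866, with a small early fall already called.

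**Figure D2:**
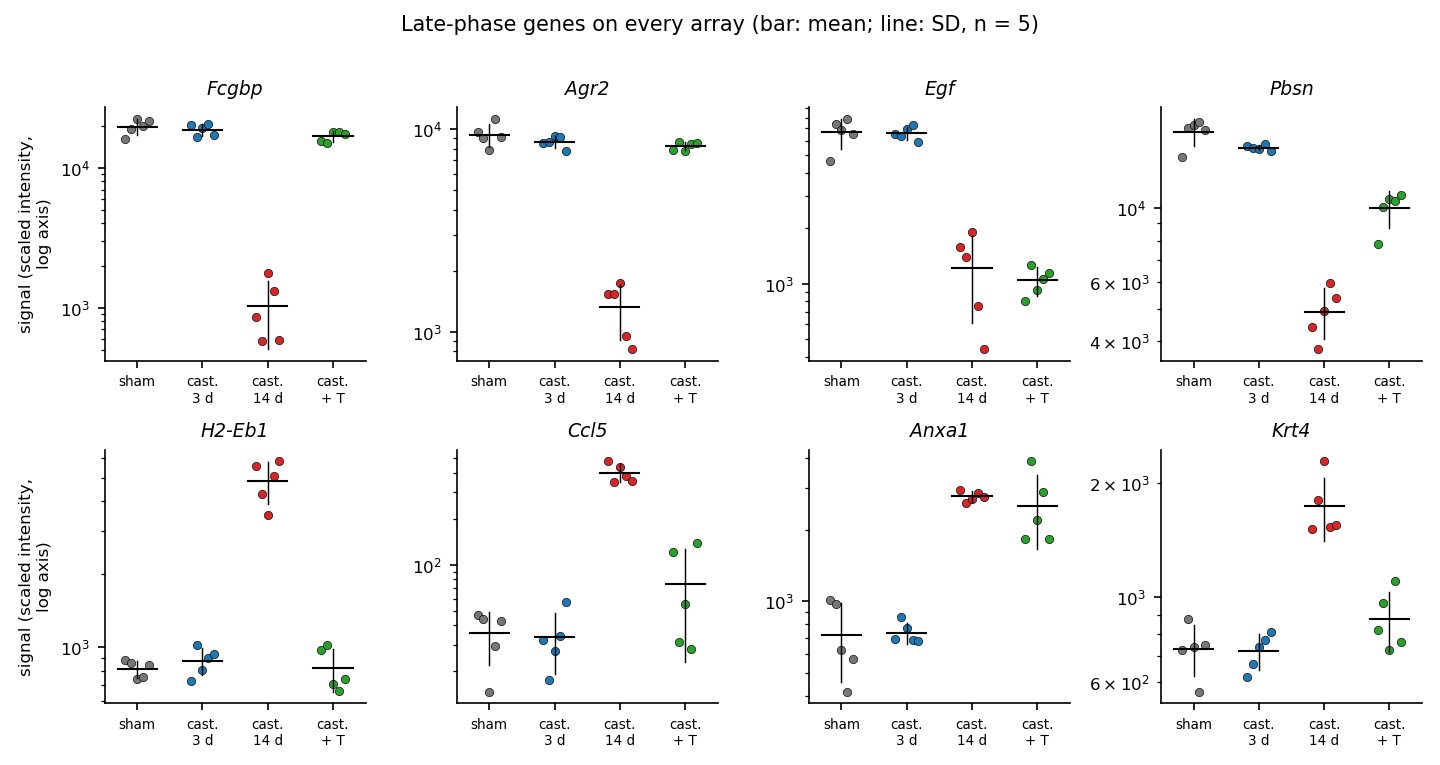
Signal on every array (log axis) of 8 late-phase genes in sham, castrated 3 days, castrated 14 days and castrated with testosterone for 3 days, 5 arrays each; bars are means and vertical lines the SD. Fcgbp, Agr2, Egf and Pbsn are low only from day 14, and H2-Eb1, Ccl5, Anxa1 and Krt4 are high only from day 14; the testosterone arrays stay low for Egf and high for Anxa1.

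Large falls at day 14 were also found in genes of other functions. Traf1, an adaptor of tumour necrosis factor receptors, went from between 259 and 342 to between 22.6 and 79.2 (log2 fall 2.79 ± 0.20). Fut9, which adds fucose to glycans, went from between 419 and 715 to between 55.6 and 148, and Mcoln2, an endolysosomal channel, from between 532 and 773 to between 81.2 and 101. None of these overlapped between groups. For each of them the testosterone arrays also stood below the 3-day arrays on average, at means of 117, 143 and 296. The probe set of Hbb-bh1, an embryonic globin, fell from between 238 and 357 to between 34.6 and 54.4, while the adult globin gene Hba-a1 rose, with means of 2084 and 3993.

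Folding of secreted proteins takes place in the endoplasmic reticulum, where chaperones of the Hsp70 and Hsp90 families, protein disulfide isomerases and a lectin cycle act on new chains. When unfolded chains gather, the sensors Atf6, Ern1 and Eif2ak3 raise the expression of these helpers. Of 41 tested genes of this group 26 fell (63.4%), 1 rose and 14 were not called, with a median log2 change of -0.56; 8 had fallen by day 3 and 6 were late-phase. Across single left-out castrated arrays between 22 and 25 fell.

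The sequences below are of genes in this group that hold the endoplasmic reticulum stress element, a CCAAT box and a CCACG box with 9 bases between them, through which ATF6 acts, in the 250 bases before a RefSeq start (GRCm38.p6). They are shown because 7 of the 34 tested group members with a promoter in the table (20.6%) hold it, against 35 of 27025 genes (0.13%), both strands searched. The group was written from general knowledge of such genes. Its share was therefore not independent of the element and is no result of these arrays. Capitals mark the element, written 5' to 3' in the direction of the gene, so a copy on the other strand begins CGTGG. The first 5 genes fell and the last 2 were not called, where 26 of the 41 tested genes of the group (63.4%) fell.

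Hspa5 (chr2:34772013-34772055, plus strand): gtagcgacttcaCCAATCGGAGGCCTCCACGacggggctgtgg
Hsp90b1 (chr10:86705521-86705668, minus strand, 2 copies): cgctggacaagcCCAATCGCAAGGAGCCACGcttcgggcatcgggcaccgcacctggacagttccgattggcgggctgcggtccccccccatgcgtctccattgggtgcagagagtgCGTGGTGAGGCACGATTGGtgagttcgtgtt
Pdia6 (chr12:17266479-17266521, plus strand): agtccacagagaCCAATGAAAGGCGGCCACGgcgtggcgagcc
Creld2 (chr15:88819508-88819550, plus strand): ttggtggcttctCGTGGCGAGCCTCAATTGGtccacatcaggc
Dnajc3 (chr14:118937815-118937857, plus strand): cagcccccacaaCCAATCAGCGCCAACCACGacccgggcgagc
Canx (chr11:50325788-50325830, minus strand): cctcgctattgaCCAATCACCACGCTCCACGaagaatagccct
Ero1b (chr13:12565670-12565712, plus strand): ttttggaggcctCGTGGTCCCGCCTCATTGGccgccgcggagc

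A match describes these letters and no binding was measured. Of the other motifs searched in the 34 genes, TGACGTGG was present in 1, TCACNCCAC in 1 and AGAACA in 2. Over all 27025 genes their shares were 0.603%, 1.22% and 18.2%. CTGATTGG, which contains an inverted CCAAT and was searched after the values were known, was present in 15 (44.1%), against 4.43% of all genes. Of these 15 genes 11 fell and none rose, where 26 of the 41 in the whole group (63.4%) fell and 1 rose.

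Hspa5 is the main Hsp70 chaperone of the compartment. It read 7463, 8263, 8549, 7957 and 7004 at day 3 and 4320.3, 4624, 4614, 4159.5 and 3165 at day 14. All 14-day arrays were lower, with array 5 lowest. The fall was 0.92 ± 0.16 (adjusted p = 1.78e-04), against an early change of -0.22 (95% interval -0.55 to 0.11), and it was not shown to differ from the early step (adjusted p = 0.112). Hsp90b1, its Hsp90 counterpart, had 3-day signals of 4941 to 7679.7 and 14-day signals of 2968 to 4017 and fell by 0.92 ± 0.15. Creld2, an isomerase-like response gene, fell from between 1369.7 and 3139 to between 594 and 729.6, Dnajc3, a co-chaperone, from between 2874 and 4687 to between 781 and 2144, and Pdia6, a disulfide isomerase, from between 3469.8 and 4535 to between 671 and 2147, each without overlap. Canx, the lectin chaperone calnexin, overlapped between groups and changed by -0.16 ± 0.12 (adjusted p = 0.319), and Ero1b, an oxidase that recharges disulfide isomerases, by 0.35 ± 0.30 (adjusted p = 0.376). Ero1b was called higher, opposite in direction to the 5 that fell, without 14-day array 5 (0.72), without the arrays of high Gapdh ratio (0.68), with array weights (0.58) and with the seminal vesicle score as a covariate (1.28).

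Atf6 itself, the transmembrane factor that senses unfolded chains, read 977, 947, 1071, 891 and 847 at day 3 and 265, 276, 345, 262 and 228 at day 14. The groups were well apart, and the testosterone group stood at 378. Its late-phase fall of 1.74 ± 0.13 (adjusted p = 1.24e-08) was joined by those of P4hb, the beta subunit of prolyl hydroxylase and a disulfide isomerase (log2 fall 1.60 ± 0.22), Uggt1, which checks the folding of glycoproteins (1.18 ± 0.18), and Selenos, a factor of the degradation pathway (1.08 ± 0.15). Pdia4, a further isomerase, had the largest fall of the group and fell by 2.31 ± 0.50, with 14-day signals of 85.6 to 204 against 643 to 885, and Fkbp11, a prolyl isomerase, fell by 1.67 ± 0.27. Xbp1, the factor spliced by Ern1, changed by 0.041 ± 0.13 (95% interval -0.24 to 0.32), and Pdia5 rose by 0.73 ± 0.27 with overlapping arrays, a call lost in most fits that leave out 1 castrated array. With the seminal vesicle score as a covariate 13 of the 41 fell and 3 rose, the median was -0.30, and Creld2, Pdia4 and Pdia6 were no longer called.

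**Figure D3:**
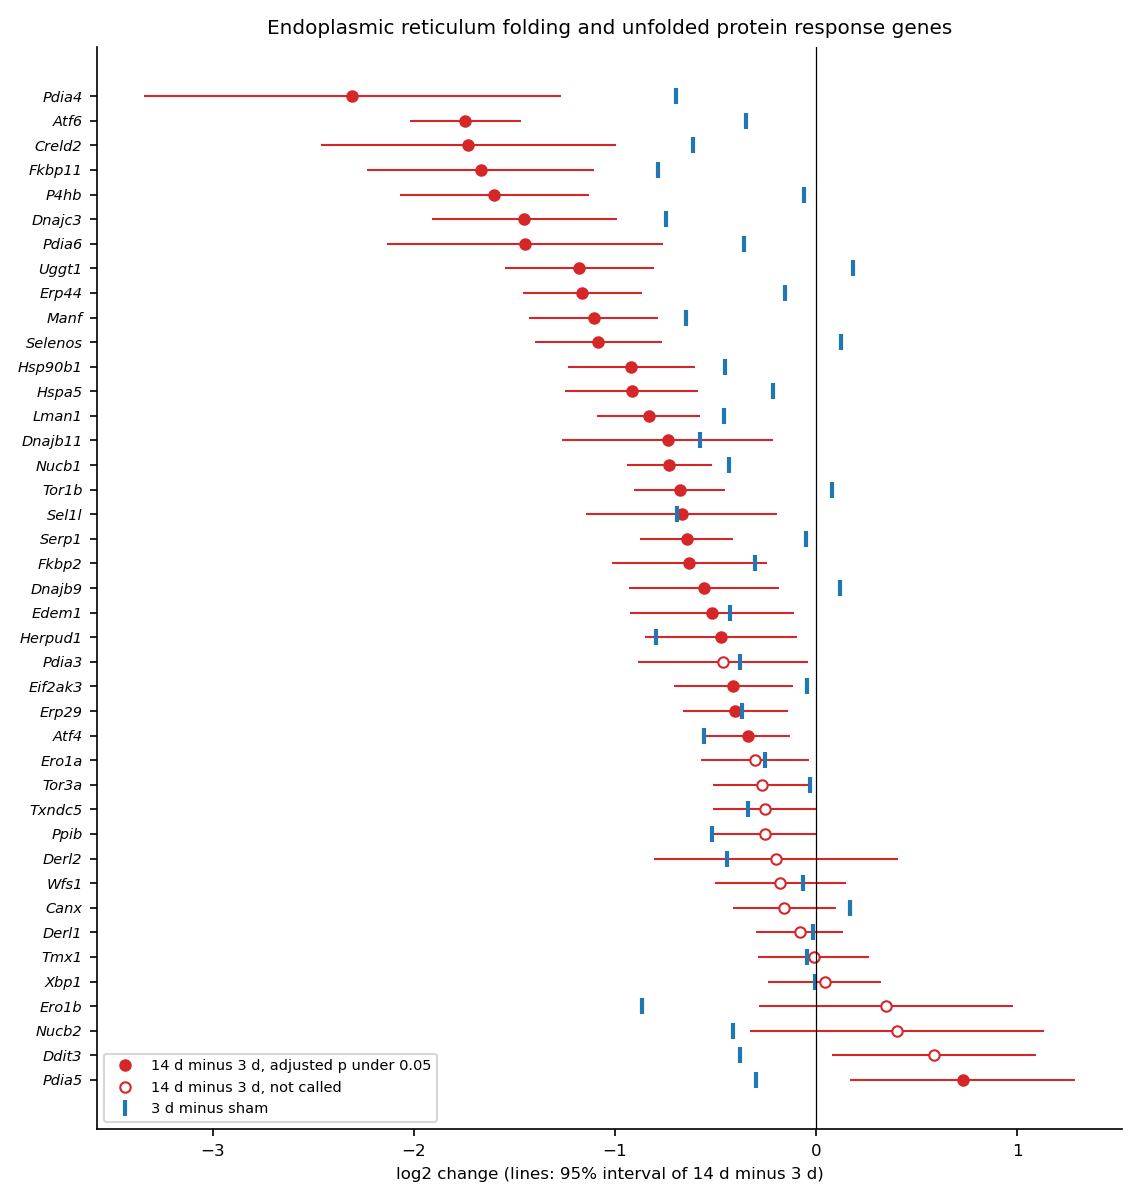
Log2 change from day 3 to day 14 with its 95% interval (red; filled where called) for the 41 tested genes of endoplasmic reticulum folding, and the change from sham to day 3 (blue ticks). Of the 41, 26 filled points lie left of 0 and Pdia5 lies right of it; for Atf6, P4hb, Uggt1 and Selenos the blue ticks lie well to the right of the red points.

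The list of later steps of secretion was likewise called lower more often than higher. Of 70 tested genes of translocation, glycosylation and vesicle transport 39 fell (55.7%), 2 rose and 29 were not called (median -0.42), and 13 of the falls were late-phase. Man1a, a Golgi mannosidase that trims N-glycans, read 2765, 3261, 3399, 3442 and 3286 at day 3 and 666, 605, 795, 918 and 996 at day 14. Every 14-day array was far below every 3-day array, and the fall was 2.02 ± 0.13 (adjusted p = 1.3e-09; early change -0.25 (95% interval -0.52 to 0.025)). Mia3, which loads large cargo at exit sites, fell by 1.10 ± 0.088, Krtcap2, a subunit of the oligosaccharyltransferase, by 1.08 ± 0.16, and Rab3d, a small GTPase of secretory granules, by 1.27 ± 0.21. Man2a1, the next mannosidase of the Golgi, fell by 1.03 ± 0.12 but had already fallen by day 3. Tmed9, a p24 cargo receptor, went the other way, with 3-day signals of 478 to 846 and 14-day signals of 2079.6 to 2395 (log2 rise 1.95 ± 0.41). With the seminal vesicle score as a covariate 24 of the 70 fell.

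Of 33 tested genes that supply amino acids and charged transfer RNAs 19 fell (57.6%) and 1 rose (median -0.39), and 17 had already fallen by day 3; with the seminal vesicle score as a covariate 9 fell and none rose. Asns, asparagine synthetase, read 4067, 3758, 3653, 3862 and 3439.8 at day 3 and 1733, 1852, 1953, 2033 and 1399.8 at day 14 against a sham mean of 5088. The groups did not overlap, and both steps were called, with log2 falls of 0.43 ± 0.11 early and 1.07 ± 0.11 late. Slc7a5, the large neutral amino acid transporter, fell by 1.39 ± 0.13, Mthfd2, a mitochondrial folate enzyme, by 1.13 ± 0.16, and Sars, the seryl-tRNA synthetase, by 1.10 ± 0.12, of which only Sars was late-phase. Wars, the tryptophanyl-tRNA synthetase, read 879, 847, 3058, 448 and 648 at day 14, so array 3 stood apart from the other 4, and 3-day signals were 4112 to 4914. Of the nucleolar and ribosome biogenesis genes 6 of 26 were higher and 3 lower (median 0.09; none higher and 2 lower with that covariate), and Ncl, the nucleolar protein nucleolin, fell by 0.84 ± 0.29.

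Of 28 genes listed as androgen-responsive 13 fell and 1 rose (median -0.37), and Pbsn, Msmb, Azgp1 and Egf, described above, are among the 13. Fkbp5, a co-chaperone induced through steroid receptors, had made its fall early (0.90 ± 0.15, adjusted p = 4.78e-04). It read 879.6, 946, 811, 977 and 897 at day 3 and 760.5, 591, 843, 738 and 684 at day 14. The groups overlapped, and the late change of -0.32 ± 0.15 was not called (adjusted p = 0.0896), although it was with array weights and in a fit of the 2 castrated groups alone. Among the 5 luminal genes that fell, Spdef, an ETS factor of secretory cells, fell by 1.05 ± 0.21, Ehf, its relative, by 0.89 ± 0.23, and Hoxb13, the homeobox factor of the prostate, by 0.76 ± 0.20; Ehf and Hoxb13 were not called with the seminal vesicle score as a covariate. Hoxb13 had 3-day signals of 2651 to 3448 and 14-day signals of 1351 to 2288, which did not overlap. Krt8, the luminal keratin, rose from a mean of 4635 to 7107 with overlapping arrays (log2 rise 0.60 ± 0.14). Over the 20 tested luminal genes 3 rose and 5 fell, with a median of -0.03, and Fxyd3, described below, was among the 3.

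Genes of the luminal cells that survive castration and of the proximal ducts were called higher more often than lower. Of 21 tested 13 rose (61.9%), none fell and 8 were not called, with a median of 0.54; 6 of the rises were late-phase, and between 10 and 13 remained called without any 1 castrated array. Krt4, a keratin of proximal luminal cells, read 617, 666, 740.1, 769.9 and 811 at day 3 and 1508, 1798, 2272, 1526 and 1548 at day 14. Ly6d, a surface protein of castration-resistant luminal progenitors, read 359, 369, 536, 269.5 and 359 and 901, 867, 977, 984 and 921. Sox2, a stem cell transcription factor also expressed in such cells, averaged 289.6 at day 3, with 319.5 on its highest array, and read 590.0, 619, 701, 629 and 899.8 at day 14. In all of them the groups were separate, with no early change called. The log2 rises were 1.24 ± 0.14, 1.30 ± 0.18 and 1.20 ± 0.16 (adjusted p = 2.23e-06, 1.57e-05 and 1.11e-05), and the late step exceeded the early one for each (adjusted p = 0.00342, 0.0168 and 0.0193). In the testosterone group Krt4 and Ly6d stood at 875 and 335, near the 3-day means of 721 and 378. Aldh1a3, a retinaldehyde dehydrogenase, rose by 1.45 ± 0.22, and Wfdc2, a secreted protease inhibitor, by 1.87 ± 0.52, the latter not called with the skeletal muscle or the seminal vesicle score as a covariate.

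Several of the largest late rises were of genes in no list described so far, and the cells they came from were not measured. Fxyd3, given with them here, is in the luminal list. Anxa1, a calcium-dependent membrane-binding protein with anti-inflammatory action, read 691, 855, 769, 684 and 681 at day 3 and 2943, 2583, 2685, 2861 and 2758 at day 14. Plec, which links intermediate filaments to junctions, read 429, 401, 471, 494 and 321 and 1546, 1798, 1416, 1773 and 1998. Both separated the groups completely and were late-phase, with rises of 1.90 ± 0.22 and 1.98 ± 0.15 (adjusted p = 2.38e-06 and 1.24e-08). Anxa2, Anxa3, Krt6a, a keratin induced by injury, and Fxyd3, a regulator of the sodium pump, rose in the late phase by 1.74 ± 0.17, 1.64 ± 0.19, 1.42 ± 0.15 and 1.37 ± 0.18. Cmbl, a cysteine hydrolase, and Mdk, the growth factor midkine, rose by 1.96 ± 0.25 and 2.17 ± 0.28, Mdk from between 63.1 and 174 to between 387 and 653. Trp63, the master factor of basal cells, rose by 0.61 ± 0.14 with 3-day signals of 231 to 341 and 14-day signals of 363 to 583, and Sfn, a 14-3-3 protein of stratified epithelium, by 1.02 ± 0.17. Over the basal list 4 of 13 rose and 2 fell, so the group as a whole was near the background.

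Antigen presentation by MHC class II had the highest share of rises among the lists. Class II molecules are carried by macrophages, dendritic cells and B cells, where the invariant chain Cd74 guards them until peptides are loaded. Of 9 tested genes 8 rose, none fell and 1 was not called (median 1.20), and this held at 8 or 9 without any 1 castrated array. H2-Eb1, a class II beta chain, read 726, 1015, 803, 904 and 939 at day 3 and 5605, 4287, 3503, 5060.1 and 5829 at day 14. The 14-day arrays were all several-fold above the highest 3-day array, while sham and testosterone means were 812 and 819.7. Its late-phase rise was 2.44 ± 0.15 (adjusted p = 3.61e-10; early change 0.10 (95% interval -0.20 to 0.41)). H2-Aa, the alpha chain of the other class II pair, read 964, 1118, 1030.0, 1063 and 1087 and 5714, 3888, 3134, 5121 and 5569. It had already risen by 0.98 ± 0.17 by day 3, and its late rise of 2.11 ± 0.17 was the larger (difference 1.13 ± 0.29, adjusted p = 0.0192). H2-Ab1 rose by 2.01 ± 0.20 and Cd74 by 1.20 ± 0.17, both after an early rise.

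The class II promoters share a compact set of boxes, among them the Y box bound by NF-Y. H2-Eb1 and H2-Aa are printed because they carry it a similar short distance before the start and both rose. Capitals mark CTGATTGG, which 4.43% of 27025 genes hold within 250 bases before a start on either strand. It is not particular to genes that rose: besides 2 of 7 class II genes, both higher, it is in 15 of 34 folding genes, 11 of them lower and none higher, and in 7 of 14 cholesterol genes, 1 of them higher. In the whole lists 8 of 9 class II genes rose, 26 of 41 folding genes fell and 5 of 19 cholesterol genes rose. The reverse complement of the last 5 letters of CTGATTGG is CCAAT, so it can overlap the element shown above. It was searched after the values were known. Neither sequence was tested for function here.

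H2-Eb1 (GRCm38.p6, chr17:34305755-34305862, plus strand): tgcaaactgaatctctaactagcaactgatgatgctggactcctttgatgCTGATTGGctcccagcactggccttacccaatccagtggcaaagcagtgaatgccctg
H2-Aa (GRCm38.p6, chr17:34287824-34287924, minus strand): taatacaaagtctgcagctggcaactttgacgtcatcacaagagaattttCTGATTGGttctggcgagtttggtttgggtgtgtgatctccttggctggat

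Macrophage and myeloid genes rose in 22 of 29 cases (75.9%), with no fall and a median of 0.84, after 18 had risen by day 3. Csf1r, the receptor for the macrophage growth factor, read 693, 799.7, 690.5, 697 and 646 at day 3 and 1379, 1048, 1068, 1214 and 1573 at day 14, against a sham mean of 281. The groups were separate, and the early rise of 1.30 ± 0.12 and the late rise of 0.81 ± 0.12 were not shown to differ (adjusted p = 0.15). Lgals3, a galectin of activated macrophages and of epithelium, rose from between 315 and 462 to between 1301 and 1664 (1.97 ± 0.16), Ctss, a lysosomal protease of antigen-presenting cells, by 1.46 ± 0.16, and Ccr2, the monocyte chemokine receptor, by 1.41 ± 0.23. The late-phase members were Aif1, an actin-binding protein of macrophages (2.50 ± 0.36; 3-day signals 27.5 to 85.5, 14-day signals 200.0 to 575), and Cyba, a subunit of the NADPH oxidase (1.60 ± 0.12). The late-phase status of Aif1 was kept in 7 of 25 alternatives. With the seminal vesicle score as a covariate 15 of the 29 rose and none fell.

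Ccl5 is a chemokine that draws T cells and monocytes. It read 32.3, 17.6, 27.4, 34.3 and 56.6 at day 3 and 474, 349, 439, 384 and 355 at day 14. The 3-day signals were below the test level and the 14-day ones well above it, with no overlap. Ccl5 passed the level filter through the 14-day arrays alone, as did Aif1, Aldh1a3, Casp4, Cdh13, Per2 and Retn, so such a gene had to differ between the groups. The log2 rise of 3.20 ± 0.32 also depends on the constant added before the logarithm (adjusted p = 6.27e-07; early change -0.058 (95% interval -0.73 to 0.62)). Genes of MHC class I and the interferon response rose in 22 of 33 cases with no fall (median 0.56), and with the seminal vesicle score as a covariate in 10 with no fall. Psmb9 and Psmb8, subunits of the immunoproteasome, rose by 1.32 ± 0.13 and 1.18 ± 0.15, Gbp2, an interferon-induced GTPase, by 1.29 ± 0.22, and Ifi27 by 1.24 ± 0.14; of these Ifi27 was late-phase, with 3-day signals of 674 to 1048 and 14-day signals of 1636 to 2233. Of 10 lymphocyte genes 4 rose and 2 fell. Ighm, the IgM heavy chain, read 5273, 1408, 2228, 1183 and 1851 at day 14 against 496 to 1089.9 at day 3, with array 1 highest, and the same array was highest for Jchain, the joining chain of polymeric antibody, at 1211. The B cell surface genes Ms4a1 and Cd79a fell by 0.63 ± 0.17 and 0.92 ± 0.35.

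Of 42 tested fibroblast and matrix genes 13 rose and 7 fell (median 0.21), after 26 had risen and none fallen by day 3, and 12 showed a significantly lower late than early step. Col1a1, the alpha 1 chain of type I collagen, read 2089, 2106, 1633, 2141 and 2378 at day 3 and 739, 745, 776, 725 and 848 at day 14, against a sham mean of 1052. The 14-day arrays were all below the 3-day arrays and around the sham level. The early rise of 1.07 ± 0.21 was followed by a late fall of 1.41 ± 0.21 (adjusted p = 4.15e-05), and the steps differed (adjusted p = 2.64e-04). Col6a2, a chain of type VI collagen, and Bgn, the proteoglycan biglycan, also rose and then fell, by 0.71 ± 0.14 and 0.63 ± 0.15 in the late step. Col3a1, type III collagen, had risen by 1.17 ± 0.18 and then changed by -0.25 ± 0.18, which was called with array weights alone among the alternatives. Eln, elastin, fell by 0.70 ± 0.21, which was not called with either tissue score as a covariate.

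Other genes of the stroma rose in the late step. Igfbp3 and Cdh13, given with them, are not in the fibroblast and matrix list, and the cells they came from were not measured. Lum, the small proteoglycan lumican, had 3-day signals of 1655 to 2256 and 14-day signals of 3309.9 to 4066 (late rise 0.96 ± 0.17, early rise 1.47 ± 0.17). Tcf21, a transcription factor of mesenchyme, rose by 1.41 ± 0.18 and 1.32 ± 0.18 in the early and late step, and Ogn, the proteoglycan osteoglycin, rose in the late phase by 1.22 ± 0.13. Igfbp3, which binds insulin-like growth factors and restrains them, read 853, 752, 672, 1050.4 and 1766 at day 3 and 3181, 3485, 2977, 4046 and 5133 at day 14, from a sham mean of 229. The groups did not overlap, testosterone arrays averaged 181, and the steps of 2.02 ± 0.23 early and 1.93 ± 0.23 late were not shown to differ (difference -0.091 ± 0.40, adjusted p = 0.91). Cdh13, a cadherin anchored by lipid, read 69.8, 54.9, 103, 97 and 164 and 328, 423, 413, 243 and 232 (late rise 1.66 ± 0.30, early rise 1.50 ± 0.30). Because Cdh13 passed the level filter through the 14-day arrays alone, its groups could not overlap. In the insulin-like growth factor axis 4 of 10 tested genes rose and 4 fell: Igfbp6 rose by 0.83 ± 0.14, while the receptor Igf1r fell by 0.76 ± 0.15, the adaptor Irs2 by 1.39 ± 0.36 and Igfbp2 by 0.76 ± 0.19.

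**Figure D4:**
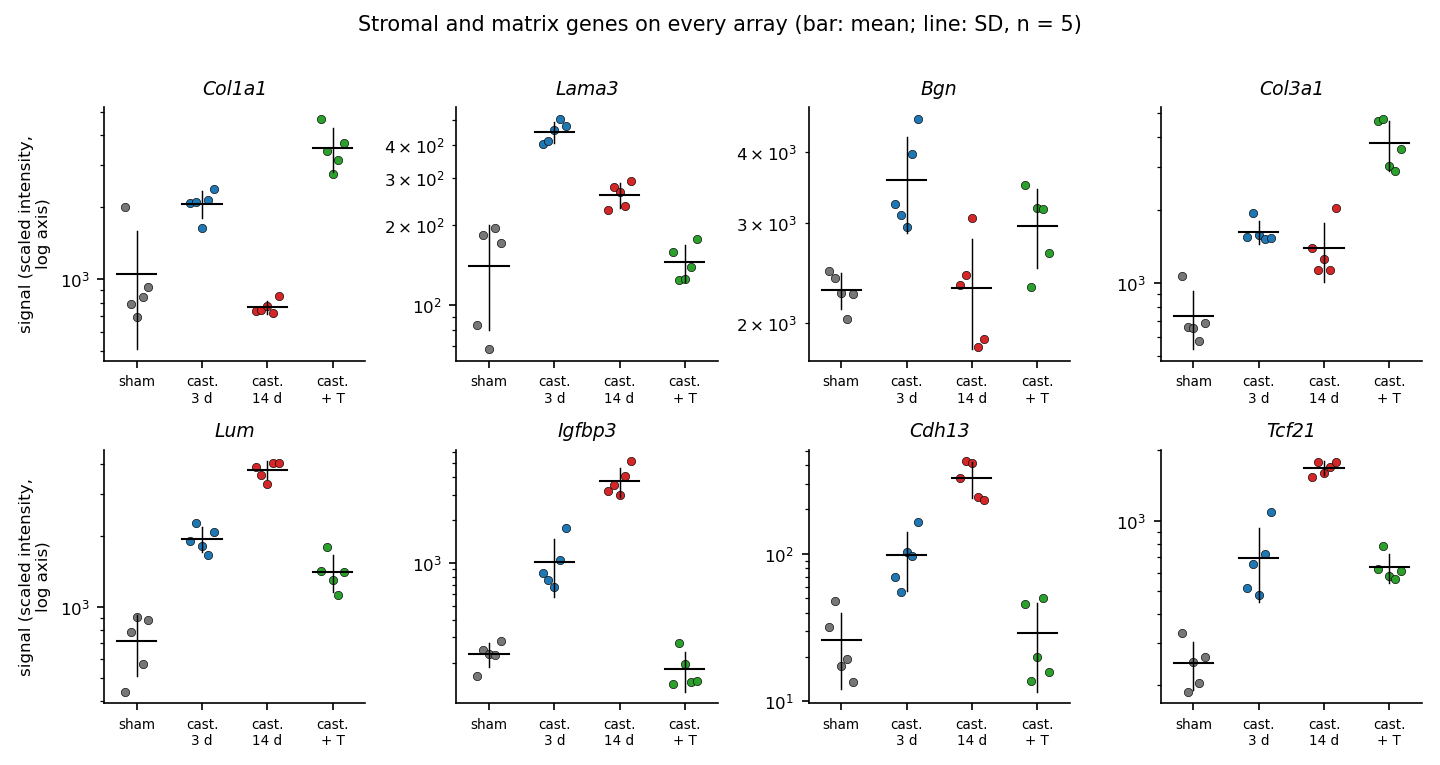
Signal on every array (log axis) of 8 stromal, matrix, laminin and other genes in the same 4 groups, 5 arrays each. Bars are means and vertical lines the SD. Igfbp3 and Cdh13 are not in the fibroblast and matrix list. Col1a1, Lama3 and Bgn are higher at 3 days than in sham and lower again at 14 days, whereas Lum, Igfbp3, Cdh13 and Tcf21 are higher at each step.

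Some genes turned between the steps. Of the 6913 probe sets tested, a called early rise was followed by a called late fall at 54, 49 of them with 1 symbol and of 48 genes. At 35 probe sets, 33 of them with 1 symbol and of 32 genes, an early fall was followed by a late rise. Over all tested probe sets 9.84% were called higher and 4.46% lower early, and 20.2% higher and 20.4% lower late. Both steps use the 3-day arrays, so a deviation of those arrays moves the steps in opposite directions, and its part was not tested. Lama3, a laminin chain beneath epithelia, rose by 1.70 ± 0.21 and fell by 0.76 ± 0.21, with 3-day signals of 404 to 503 and 14-day signals of 228 to 294. Immediate early and stress genes were higher in 13 of 41 cases and lower in 9 in the late step (median -0.025). Among early response genes that had risen early, Nr4a1, a nuclear receptor, and Dusp1, a phosphatase of MAP kinases, fell back by 0.74 ± 0.14 and 0.65 ± 0.14. In the reverse direction Wnt4, a secreted signal of urogenital development, read 118, 113, 131, 184 and 186 at day 3 and 323, 489, 372, 427 and 351 at day 14 around a sham mean of 294. The groups were separate, with an early fall of 0.94 ± 0.18 and a late rise of 1.36 ± 0.18 (difference adjusted p = 1.28e-04).

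Smooth muscle genes stayed near the background, with 5 of 20 higher and 2 lower (median 0.13). The largest of the 5 rises was also among the 15 largest rises without overlap of all genes, which skeletal muscle genes lead. The part of skeletal muscle carry-over in this count was not tested. Acta2, smooth muscle actin, read 4253, 3427, 4368, 5671 and 5411 at day 3 and 5005, 5459, 4470.5, 6482 and 5967 at day 14. The groups overlapped and the change of 0.25 ± 0.14 (95% interval -0.036 to 0.54) was not called, although it was after quantile normalization. Tagln, an actin-binding protein of the same cells, fell by 0.42 ± 0.091 and Cnn1, calponin, by 0.61 ± 0.21, with Cnn1 lowest on 14-day array 5.

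Genes of vessels, nerves and fat were called higher more often than lower. Of 19 endothelial genes 8 rose and 3 fell (median 0.39). Cldn5, a tight junction protein of vessels, rose in the late phase from between 101 and 237 to between 360.3 and 441 (1.62 ± 0.20), Cdh5, the cadherin of endothelial junctions, by 0.99 ± 0.20, and Aqp1, a water channel, by 1.07 ± 0.26, whereas Notch4 fell by 0.97 ± 0.35. Of 14 genes of nerve, glia and neuroendocrine cells 10 rose and none fell (median 1.05). Prph, an intermediate filament of peripheral neurons, had 3-day signals of 46.4 to 209 and 14-day signals of 339 to 535, and Uchl1, a deubiquitinase of neurons, 236 to 611 and 791 to 1019, neither overlapping. Snap25, a protein of synaptic vesicle fusion, rose by 2.24 ± 0.66 and Cadps, which primes dense-core vesicles, by 1.61 ± 0.21. Cldn5, Prph and Snap25 each exceeded the test level on all 5 14-day arrays, 1 3-day array and no sham or testosterone array. Their high 14-day signals thus carried them past the filter. With a filter on the mean, 5 of 14 endothelial genes rose and 3 fell, and 8 of 12 nerve genes rose and none fell. Of 14 adipocyte genes 6 rose and 1 fell (median 0.44), led by Car3 (2.61 ± 0.53), Retn, the hormone resistin (2.21 ± 0.35), and Adipoq, adiponectin, which read 1097, 528, 487, 168 and 528 at day 3 and 1840.5, 1070.1, 1699, 1712 and 1226 at day 14 and overlapped narrowly. Adipoq was not called with either tissue score as a covariate. Fat, nerve and vessel are parts of the tissue around the gland as well as within it, and how much of each was dissected was not measured.

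The list of skeletal muscle, a tissue found near the prostate and not part of the gland, had the highest median change of the lists. Of 32 tested genes 18 rose and 1 fell, with a median of 2.18 after -0.74 in the early step. The mean log2 level of the list was 9.27, 9.59, 10.15, 8.68 and 7.59 on the 14-day arrays and 6.71 to 7.93 on the 3-day arrays, and the summed signal ran from 7940 to 58965 against 5679 to 11383. The 14-day arrays 1 to 4 were above all 3-day arrays, array 5 was within their range, and sham arrays spanned 7.05 to 9.30. Acta1, skeletal actin, read 732, 438, 926, 888 and 1565 at day 3 and 3268, 4482, 5611, 2075 and 574 at day 14, with array 5 inside the 3-day range. Pgam2, a muscle isoform of a glycolytic enzyme, read 4.5, 4.7, 5.7, 7.4 and 10 and 573, 858, 1800.2, 282 and 18, with array 5 lowest; its 3-day signals lay below the constant of 12.7, so no size of change is given. Ckm, the muscle creatine kinase, went from between 14.6 and 79.5 to between 41.7 and 759. The list's mean is used below as a covariate for other genes; a loss of its own members' calls there is fixed by construction and is not read. Myog, the muscle differentiation factor, fell by 1.66 ± 0.27 while the contractile genes rose.

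**Figure D5:**
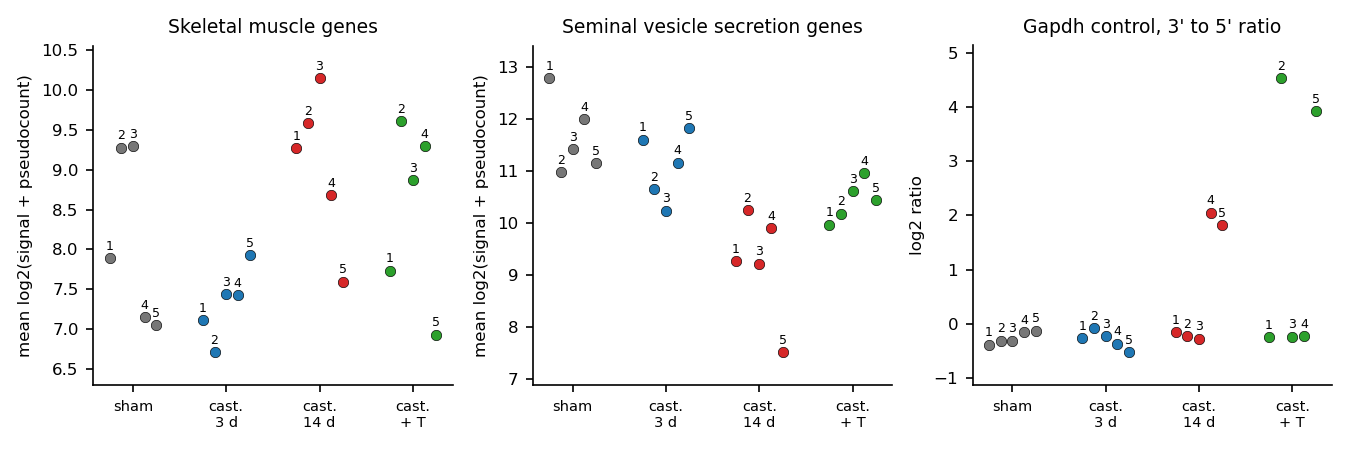
Mean log2 level of 32 skeletal muscle genes (left) and 6 seminal vesicle genes (middle), and the log2 ratio of the 3' to the 5' Gapdh control (right), on every array of the 4 groups, numbered by replicate. Among the 14-day arrays, numbers 1 to 4 have more skeletal muscle signal than any 3-day array, number 5 has the lowest seminal vesicle signal, and numbers 4 and 5 have the high Gapdh ratios.

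Mitochondrial genes are abundant in muscle, so their change is given with that score. Of 68 tested genes of oxidative phosphorylation and the citrate cycle 30 rose (44.1%), 3 fell and 35 were not called (median 0.27), and with the skeletal muscle score as a covariate 17 rose and 3 fell (median 0.24). With the seminal vesicle score as a covariate 14 rose and 1 fell. Ndufa5, a subunit of complex I, read 2298, 2639, 2077, 2569 and 1772 at day 3 and 3390.5, 4094, 3613, 4334 and 3531 at day 14. The groups did not overlap, and 14-day array 5, with the least muscle signal, was within the range of the others. Its rise was 0.75 ± 0.15 (adjusted p = 9.10e-04). Idh2, the mitochondrial isocitrate dehydrogenase, rose in the late phase by 0.59 ± 0.10 and was called with the covariate. Cycs, cytochrome c, rose by 0.90 ± 0.22, with 14-day array 3 highest at 656 and array 5 lowest at 233, and was not called with the covariate. Across all tested probe sets 1036 of the 1395 rises and 1013 of the 1407 falls were called in the same direction with this covariate, and none was called in the opposite direction.

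Seminal vesicle secretion genes, whose tissue adjoins the gland and also depends on androgen, fell in 4 of 6 cases and rose in 1 (median -1.78). The gene that rose was late-phase and is also part of the score used as a covariate. Svs2, a protein of the copulatory plug, read 17020.4, 16558, 15772, 16267 and 15164 at day 3 and 7592, 8995, 7558, 12289 and 151 at day 14. All 14-day arrays were below the 3-day arrays and array 5 was far below the other 4. The fall of 2.01 ± 0.75 (adjusted p = 0.0395) was not called without any one of the 3-day arrays, without the level filter, after quantile normalization or in a fit of the 2 castrated groups alone. Svs5 fell by 1.85 ± 0.34, with 14-day signals of 1198 to 8586. Svs6 had signals of 253 to 4946 at day 3 and 3.7 to 190.0 at day 14. The mean log2 level of these 6 genes was 7.51 to 10.2 at day 14 and 10.2 to 11.8 at day 3, and with it as a covariate 1465 probe sets were called in place of 2802. The score itself differed between the groups, and its part in the other results was not tested. Other lists whose counts moved by over 1.5 times with this covariate were apoptosis regulators (9 to 2 higher), proteases and inhibitors (14 to 9 higher, 6 to 2 lower), fibroblast and matrix genes (7 to 2 lower) and growth and developmental signals (10 to 5 lower). Among the genes named here that are not in the score itself, Adipoq, Anpep, Aoc3, Bcl2l11, Bgn, Capn1, Casp4, Clu, Cnn1, Col6a2, Creld2, Ehf, Eln, Gpx3, Hba-a1, Hoxb13, Igfbp2, Irs2, Jchain, Krt8, Mdm2, Ms4a1, Mvd, Notch4, Odc1, Pdia4, Pdia6, Per1, Per2, Sbp, Snap25, Srm, Tagln, Trp63 and Wfdc2 were not called with this covariate, and Adipoq, Aoc3, Cd79a, Cycs, Eln, Lama3, Mdm2, Ncl, Notch4, Odc1, Pdia5 and Wfdc2 were not called with the skeletal muscle score.

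Mki67, a marker of cycling cells, read 12, 36.1, 32.6, 38 and 34.9 at day 3 and 37.2, 32.2, 29.6, 19.8 and 19.6 at day 14. All 10 signals lay below the test level, while testosterone arrays averaged 1367, and the change of -0.081 ± 0.22 was not called. Of 55 replication and mitosis genes 12 rose and 3 fell (median 0.03), and with the seminal vesicle score as a covariate 6 rose and 3 fell. Smc2, a condensin subunit, rose by 1.02 ± 0.17, Stmn1, a tubulin-binding protein, by 0.99 ± 0.15 and Bub3, a checkpoint protein, by 0.64 ± 0.075. Smc2, Top2a, the replicative topoisomerase, and Kif20a, a mitotic kinesin, lay below the test level on all 10 castrated arrays and passed it through other groups; Top2a read 54.3 to 115 at day 3 and 7.9 to 34.8 at day 14, and Kif20a 101 to 185 and 17.2 to 118. Of 37 apoptosis regulators 9 rose and 4 fell: Casp4, an inflammatory caspase, and Bcl2l11, the death inducer Bim, rose by 1.16 ± 0.33 and 0.53 ± 0.13, and Bcl2l2, a survival protein, and Mdm2 fell by 0.60 ± 0.13 and 0.49 ± 0.15. Of 39 proteases and inhibitors 14 rose and 6 fell, the rises led by Ctss, Anpep, an aminopeptidase (0.99 ± 0.22), and Ctsh, a cathepsin (0.95 ± 0.13), and the falls by Capn1, a calpain (1.47 ± 0.31), and Mmp7, the matrilysin of glandular epithelium (0.83 ± 0.18).

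Detoxifying enzymes changed in both directions, with 17 of 50 higher and 13 lower (median 0.13). Mgst3 and Mgst1, membrane-bound glutathione transferases, rose by 1.49 ± 0.11 and 1.60 ± 0.18, Mgst3 in the late phase from between 813 and 1058 to between 2237 and 2949. Gstt1, a soluble transferase, rose by 1.18 ± 0.21, whereas Gss, glutathione synthetase, fell by 0.86 ± 0.16 and Gpx3, a secreted peroxidase, by 0.72 ± 0.18. Of 19 genes of cholesterol synthesis and uptake 5 were higher and 1 lower: Idi1, an isomerase of the synthesis, rose by 1.29 ± 0.27 from between 65.3 and 126 to between 120.0 and 376, and Mvd, a decarboxylase of the same route, fell by 0.87 ± 0.28 with all 10 castrated signals below the test level. In the polyamine pathway, which feeds the spermine of the secretion, 3 of 7 tested genes fell and 1, the amine oxidase Aoc3, rose by 0.41 ± 0.14. Arg2, arginase, Srm, spermidine synthase, and Odc1, ornithine decarboxylase, fell by 0.81 ± 0.12, 0.63 ± 0.16 and 0.38 ± 0.13.

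Among growth and developmental signals 16 of 53 genes rose and 10 fell (median 0.21). Kitl, the ligand of the Kit receptor, rose by 0.98 ± 0.15 and Cxcl12, a stromal chemokine, by 1.07 ± 0.18, while Bmp7, a ligand of the bone morphogenetic protein family, fell in the late phase from between 818 and 957 to between 194 and 359 (1.44 ± 0.14). The clock genes Bhlhe40 and Per2, both repressors, rose by 1.40 ± 0.18 and 0.96 ± 0.21, Cry1 by 0.66 ± 0.13, and Per1 fell by 0.69 ± 0.18; over 16 clock genes 4 rose and 1 fell, and the hour of killing is not given in the sources used here. Ptgs2, the inducible cyclooxygenase, fell in both steps, by 2.00 ± 0.37 and 1.44 ± 0.37. It exceeded the test level on all 5 sham arrays, 1 3-day array and no 14-day array, so its late fall was mostly between signals under that level.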

How the data were processed

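Total RNA of whole mouse prostates was labelled as biotin cRNA and hybridised to Affymetrix murine genome arrays, 1 array per sample, per the labels' protocols. The deposited intensity values were made with MAS5 5.0, per the submitters' processing notes, and their scale was found from the values; other steps are not given in the sources used here. Groups came from the source names in the labels, with replicates numbered in accession order; the labels do not say that each array is a separate mouse, so p-values measure the spread between these arrays.

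The values were tested as log2(signal + 12.7), 12.7 being the 10th percentile, in 1 limma fit (3.58.1, R 4.3.3) of all 4 groups, two-sided with Benjamini-Hochberg adjustment over 6913 probe sets above 190.8 on at least 5 arrays, with a threshold of 0.05. The fit was tested on simulated data. Of 12422 probe sets 10833 had 1 gene symbol, 396 several and 1193 none; a gene is given by its probe set of highest mean. Promoters are from RefSeq's table. The number of arrays limits the precision. Alternatives were other pseudocounts, filters and scalings, array weights, fewer arrays and tissue scores as covariates.

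The comparison, the gene lists and the tests were chosen with earlier results of these data known. Genes were named by rule: the 15 largest rises and falls without overlap, the 10 largest late-phase changes each way, and up to 5 members per list and direction; 139 of these 248 genes are described, a choice made with their values known. Anxa2, Anxa3, Canx, Ckm, Col3a1, Csf1r, Dnajc3, Dusp1, Ero1b, Hsp90b1, Hspa5, Idh2, Krt6a, Lum, Pdia6, Selenos, Uggt1 and Xbp1 are 18 more that fall outside it and were chosen after their values were seen.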

Additional observations from a re-analysis of the deposited data

Results flagged for a closer look

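Within a group of 5 arrays, 1 array stood apart from the other 4 by Dixon's criterion in 26 of 314 gene and group combinations (157 genes in the 2 castrated groups); chance alone gives about 1 in 20.

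The 14-day array 5 gave 10 of the 26, each time as the lowest signal. These were Bmp7 at 194 (others 326 to 359), Cldn5 at 360.3 (others 419 to 441), Cnn1 at 1207 (others 2229 to 2523), Ero1b at 138 (others 508 to 591) and Hspa5 at 3165 (others 4159.5 to 4624). Also lowest there were Igfbp2 at 258 (others 439.5 to 529.9), Lcn2 at 244 (others 2895 to 5893), Man2a1 at 1108 (others 1453 to 1554), Notch4 at 67.5 (others 203 to 311) and Svs2 at 151 (others 7558 to 12289). The same array had the lowest skeletal muscle and seminal vesicle scores of its group and 1 of the 2 high Gapdh ratios there, and their part in these values was not tested.

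Among the other 14-day arrays, array 4 was highest for Canx at 626 (others 489.9 to 522), array 3 was lowest for Cyba at 1794 (others 2278 to 2499), array 3 was highest for Nr4a1 at 566 (others 360.2 to 409) and array 3 was highest for Uggt1 at 492 (others 289 to 310.2).

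Among the 3-day arrays, the highest signal stood apart for Cnn1 on array 5 at 4436 (others 2779.6 to 3148), Col3a1 on array 2 at 1948 (others 1522 to 1579), Col6a2 on array 5 at 1411 (others 846 to 966), Srm on array 2 at 948 (others 743 to 778), Tmed9 on array 1 at 846 (others 478 to 541) and Xbp1 on array 2 at 3853 (others 3278 to 3409.5). Among the 3-day arrays, the lowest signal stood apart for Man1a on array 1 at 2765 (others 3261 to 3442), Mki67 on array 1 at 12 (others 32.6 to 38), Myog on array 4 at 181 (others 234 to 256), P4hb on array 4 at 1579.7 (others 2425 to 2819), Sbp on array 5 at 8478 (others 12964 to 14629) and Wfdc2 on array 5 at 43.9 (others 199.6 to 319).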

How the results depend on the processing

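The 2802 changed probe sets stayed within 1.5 times under every alternative except the seminal vesicle score as a covariate, which left 1465 (750 higher, 715 lower). The count differing between steps, 678, and the late-phase count, 474 (208 higher, 266 lower), were less stable. They became 1735 and 1214 (509 and 705) with array weights, and 328 and 218 (92 and 126) with the skeletal muscle score. Without a level filter 175 late-phase probe sets fell, and after median centring 118 rose. Leaving out 1 castrated array in turn gave 348 to 792 differing and 248 to 568 late-phase probe sets (105 to 239 higher, 137 to 329 lower), the lower ends without 1 of the 3-day arrays 1 to 4. The cause was not tested. Of the genes named, the log2 change reversed sign for Mki67 (0.073 with array weights, 0.12 without the arrays of high Gapdh ratio), Svs2 (0.12 with the seminal vesicle score, of which it is part) and Xbp1 (-0.0012 and -0.016 without 14-day array 1 or 2, in a range of -0.016 to 0.11 over left-out castrated arrays); none of these values was called. Calls were gained for Ero1b, Fkbp5, Col3a1 and Acta2, in 8 fits in all. Apart from the tissue scores, calls of Aoc3, Casp4, Cd79a, Clu, Cnn1, Mvd, Ncl, Notch4, Odc1, Pdia5 and Svs2 were lost in at least 1 alternative; for Cnn1 these were the fits without 3-day array 5 or 14-day array 5. No paired analysis was possible because the labels give no replicate numbers that the groups share. Signals near the constant of 12.7 limit the size of a change, as for Ccl5, Pgam2 and Svs6.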
